A study of Homo sapiens and Mus musculus with 21 samples.

Results

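The comparison described here is between CUTLL1 cells that carried the hairpin shDHX15-1 and CUTLL1 cells that carried the control hairpin shGFP. It comprised 6 of the 21 samples of the series, 3 RNA-seq libraries per hairpin, chosen by their labels. CUTLL1 is an established human T-ALL (T-cell acute lymphoblastic leukemia) line. Hairpins were delivered by lentivirus, per the labels; shGFP is directed at a gene that human cells lack and shDHX15-1 at DHX15, and no drug is named for either group. A second DHX15 hairpin, shDHX15-2 (3 libraries), ciclopirox at 5 µM with its DMSO controls (3 libraries each) and a list of RNA immunoprecipitation peaks of DHX15 from the same line are used below only to show where shDHX15-1 differed. Neither time after infection nor cell survival at harvest is given in the sources used here. No label says that the 3 libraries of a group came from separate infections or cultures, so the p-values rest on a spread between libraries that could be technical. Of the 19848 genes in the deposited table, 14865 reached 1 RPKM (reads per kilobase of gene length, scaled to the library total) in at least 3 of the 6 libraries and were tested.

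DHX15 is a DEAH-box RNA helicase. With G-patch proteins as partners it releases spliced-out intron lariats and discards stalled spliceosomes, and it also takes part in the assembly of the small ribosomal subunit. T-ALL cells of this kind are driven by NOTCH1, which sustains MYC, and MYC in turn drives genes of ribosome assembly, polyamine synthesis and nutrient uptake. In bulk RNA, a smaller share of cells of one kind and less RNA per cell cannot be told apart.

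Library totals were 59961941 to 62633707 reads, of which over 99.7% lay in listed genes, so depth was nearly the same in all 6. The first principal component separated the hairpins and held 88.2% of the variance. Libraries with shDHX15-1 had more genes at or above 1 RPKM, 14846 to 14870 against 14208 to 14242 with shGFP. All 8 T cell markers in the check of the label were expressed, with a summed level of 1484 to 1516 RPKM with shGFP and 1692 to 1712 RPKM with shDHX15-1. They did not move together: CD3E, CD7 and TRBC1 rose, CD5, LCK and TRBC2 fell, and CD3D and CD3G were not called. Of 29 markers of 7 other cell types, 6 were in the table. CD68, a lysosomal marker of myeloid cells, rose from 2.05 to 2.55 RPKM to 6.27 to 6.54 RPKM. CSF1R, another listed myeloid marker, stayed under 0.02 RPKM in every library, and the other 3 listed were not in the table. VIM, an intermediate filament gene, fell from 192 to 195 RPKM to 98.3 to 101.9 RPKM, and the B cell gene CD79A rose from 23.6 to 24.8 RPKM to 33.6 to 35.5 RPKM. CD79B, its partner in B cells, fell from 2.42 to 2.703 RPKM to 2.11 to 2.31 RPKM, and the endothelial gene PECAM1 changed by −0.42. The part of other cell types in the results was not tested.

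The targeted gene was checked first. DHX15 stood at 42.8, 44.1 and 43.2 RPKM in the 3 shGFP libraries and at 17.1, 17.3 and 16.5 RPKM in the 3 shDHX15-1 libraries. Every library with the hairpin was thus lower than every control library, with 0.391 of the control level left (log2 fold change −1.30, SE 0.0261, limma adjusted p = 2.04e-07). Fold changes here and below are differences of mean log2(RPKM + 1), which understate changes of genes with low RPKM. Adjusted p-values are two-sided and taken over all genes tested. Some genes named below were under 1 RPKM in every library of 1 group and passed the filter through the other group only. With shGFP these include AK4, JUN, KREMEN2, CTSW, N4BP3 and PPFIA4, and with shDHX15-1 FOS, SCEL and SCEL-AS1. For such genes the filter fixed the direction and the lack of overlap, and the p-values are not free of it.

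The loss of DHX15 RNA came with change across most of the transcriptome. Of 14865 genes 10851 (73%) were called at a limma adjusted p under 0.05, of which 6626 (44.6%) were higher and 4225 (28.4%) lower with shDHX15-1. The libraries of the groups did not overlap for 11391 genes (76.6%). Most changes were small, since only 261 genes (1.76%) were higher and 121 (0.814%) lower by at least 2-fold on that scale. The direction depended on scaling. Higher genes made up 61.1% of the called genes on RPKM as deposited, 45.7% after median-centring of the libraries, 49.5% after quantile normalisation, 50.3% with edgeR and 49.4% with DESeq2. The median of all genes moved from 0.09 to −0.02 on the log2 scale under median-centring. Counts of lists below are therefore read against these shares and against the median of 0.09.

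EGR1 and FOS headed the 15 largest falls, which also held DUSP6 and DUSP2. Growth factor and antigen receptor signals are known to switch on these genes quickly. EGR1, a zinc finger transcription factor, stood at 97.9, 89.4 and 92.3 RPKM with shGFP and at 1.63, 1.26 and 1.319 RPKM with shDHX15-1. No other gene that passed the threshold fell as far, to 0.0151 of control (log2 fold change −5.29, SE 0.0639, limma adjusted p = 4.06e-08). FOS, a subunit of the AP-1 transcription factor, was at 7.85, 7.64 and 7.63 RPKM in the controls and at 0.237, 0.288 and 0.266 RPKM with the hairpin (−2.78, limma adjusted p = 5.40e-08). It passed the filter through shGFP libraries only, which fixed its direction. DUSP6, which removes phosphate from ERK kinases and is itself induced by ERK, fell from 6.82, 7.45 and 7.06 RPKM to 1.19, 1.36 and 1.17 RPKM (−1.86, limma adjusted p = 5.24e-07). DUSP2, a nuclear MAP kinase phosphatase, fell from between 22.9 and 25.5 RPKM to between 6.12 and 7.63 RPKM. The other large falls were of other kinds. They included GZMA, SRM, GLO1, SDF2L1 and INSIG1, described below, with PI16 (−1.698) and MPV17L2 (−1.62). SCEL (−2.61) and its antisense partner SCEL-AS1 (−1.80), whose reads may not be separable, were also among them. MPV17L2 overlaps the gene RAB3A, so its level is uncertain too. In the list of immediate early and activation genes 10 of 20 tested members fell and 5 rose (median −0.30), and the risers included the antiproliferative gene BTG2 (1.72) and the repressor gene KLF10 (1.60).

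The EGR1 promoter is shown because this gene fell most and because serum response factor acts on EGR1 through CArG boxes, which are in capitals. The sequence holds the 250 bases upstream of the RefSeq start on GRCh38.p14, plus strand, chr5:138465229-138465478, written 5′ to 3′.
EGR1: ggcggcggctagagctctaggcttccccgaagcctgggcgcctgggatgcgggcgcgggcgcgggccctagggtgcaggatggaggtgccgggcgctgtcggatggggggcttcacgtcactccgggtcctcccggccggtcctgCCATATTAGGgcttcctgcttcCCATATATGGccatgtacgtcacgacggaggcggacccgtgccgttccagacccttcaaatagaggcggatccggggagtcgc
A search of both strands found 2 such boxes here. A CArG box lay in 1.14% of the 27305 promoters of this length in the RefSeq table and in 1 of 16 immediate early genes that could be matched, which was EGR1 itself. Boxes further from the start, or with a looser match, were not searched for.

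AP-1 family members moved apart. JUN, the partner of FOS, was at 0.611, 0.813 and 0.686 RPKM with shGFP and at 6.62, 6.77 and 6.59 RPKM with shDHX15-1. All 3 hairpin libraries were above all controls, which the filter had fixed (2.17, SE 0.0523, limma adjusted p = 3.36e-07). JUNB fell from between 76.4 and 77.0 RPKM to between 41.7 and 44.8 RPKM (−0.80, limma adjusted p = 1.48e-06). BATF3 changed by −1.07 and MAFK by 0.99, and of the 8 tested members of the JUN and ATF3 list 3 rose and 3 fell.

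**Figure D1:**
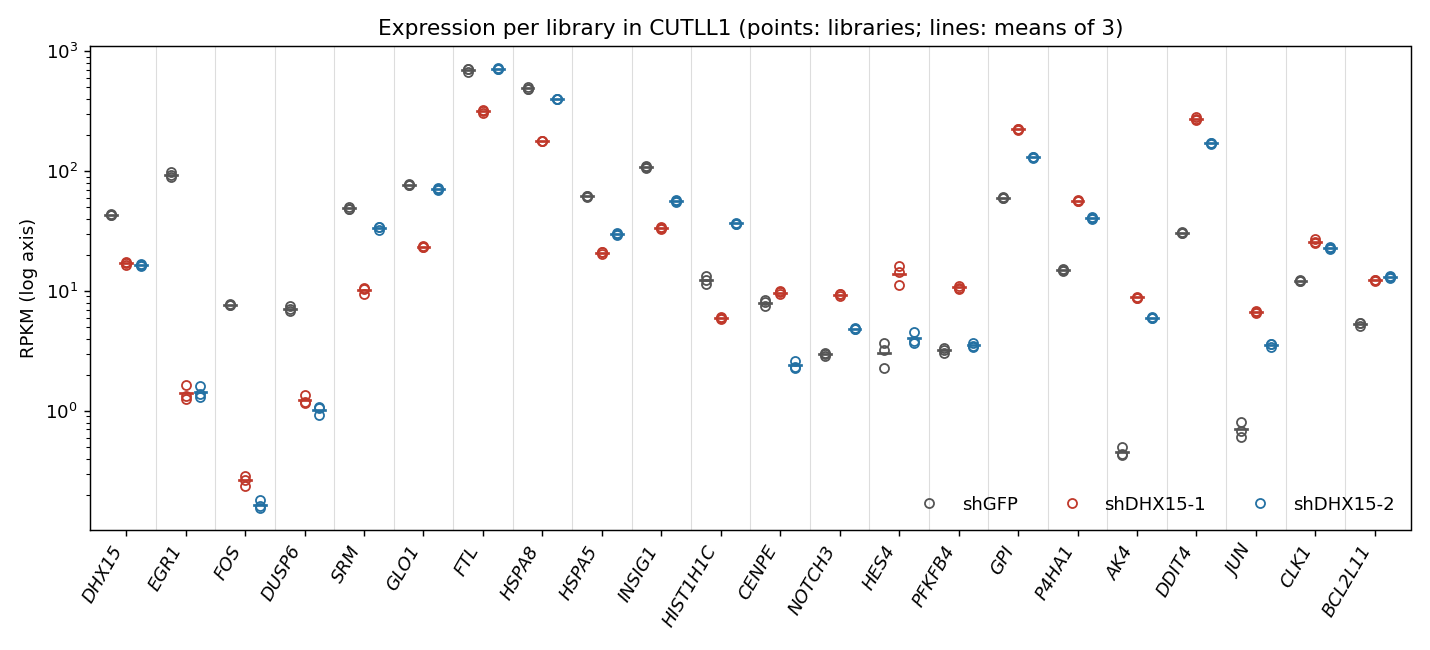
RPKM (log axis) of 22 genes in each of the 3 shGFP, 3 shDHX15-1 and 3 shDHX15-2 libraries, with points for libraries and short lines for means. DHX15, EGR1 and FOS were low with both DHX15 hairpins, whereas GLO1, FTL, HES4 and PFKFB4 with shDHX15-2 lay near shGFP, and HIST1H1C and CENPE lay on opposite sides of it with the DHX15 hairpins.

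Targets of the hypoxia-inducible factors (HIF) and the enzymes of glycolysis rose. HIF is degraded when oxygen and iron allow prolyl hydroxylases to mark it, and otherwise switches on genes for glucose use, oxygen supply and mitophagy. Of 27 tested HIF targets outside glycolysis 23 rose and 4 fell, with a median of 0.69, and of 25 glycolysis genes 20 rose and 4 fell, with a median of 0.70. AK4, a mitochondrial adenylate kinase, was at 0.498, 0.436 and 0.430 RPKM in the controls and at 8.82, 8.99 and 8.80 RPKM with the hairpin (2.76, SE 0.0387, limma adjusted p = 5.40e-08). P4HA1, a collagen prolyl hydroxylase, was at 15.0, 14.8 and 15.3 RPKM against 56.3, 57.4 and 56.5 RPKM (1.85, limma adjusted p = 4.06e-08). In neither gene did the groups overlap, which for AK4 the filter had fixed.

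VEGFA, the angiogenic growth factor, rose from 1.55, 1.29 and 1.64 RPKM to 9.32, 9.09 and 8.96 RPKM (2.03, limma adjusted p = 5.99e-07). PPFIA4, a liprin gene, rose from between 0.459 and 0.514 RPKM to between 4.53 and 4.76 RPKM. The exceptions were CITED2, which competes with HIF for its coactivators and changed by −1.14, the lysyl hydroxylase gene JMJD6 (−0.48), ERO1A (−0.26) and EPAS1 (−0.24). HIF1A RNA changed by 0.20 and that of its partner ARNT by 0.41.

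Within glycolysis, GPI, which converts glucose-6-phosphate to fructose-6-phosphate, was at 61.2, 59.5 and 59.3 RPKM with shGFP and at 222.9, 223.1 and 221.7 RPKM with shDHX15-1, a ratio of 3.71 (1.87, SE 0.0197, limma adjusted p = 2.71e-08). The aldolase gene ALDOC changed by 1.88. PFKFB3 and PFKFB4, which make the activator of phosphofructokinase, changed by 1.496 and 1.48. The fallers were the muscle phosphofructokinase gene PFKM (−0.76), LDHB (−0.49) and 2 others, and LDHB stood at 314.7 to 319.7 RPKM in the controls. GBE1, the glycogen branching enzyme, rose outside the list from between 3.90 and 4.02 RPKM to between 18.6 and 18.9 RPKM.

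The 2 promoters that follow belong to HIF targets among the strongest risers, and capitals mark ACGTG, one of the core forms that HIF recognises, on either strand. AK4 lies on the plus strand at chr1:65147302-65147551 and P4HA1 on the minus strand at chr10:73096867-73097116 (RefSeq, GRCh38.p14), each shown 5′ to 3′ over 250 bases upstream of its start.
AK4: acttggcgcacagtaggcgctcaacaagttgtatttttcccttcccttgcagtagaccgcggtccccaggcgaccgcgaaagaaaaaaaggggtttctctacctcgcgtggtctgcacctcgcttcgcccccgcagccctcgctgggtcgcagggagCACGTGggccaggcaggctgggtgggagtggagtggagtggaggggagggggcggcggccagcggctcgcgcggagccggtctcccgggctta
P4HA1: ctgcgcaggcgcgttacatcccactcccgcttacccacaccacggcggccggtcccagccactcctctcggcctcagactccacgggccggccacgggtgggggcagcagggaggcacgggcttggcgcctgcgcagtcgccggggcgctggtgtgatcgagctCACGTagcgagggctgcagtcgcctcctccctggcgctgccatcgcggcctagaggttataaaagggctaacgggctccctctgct
In AK4 the core reads on both strands of one CACGTG, which is also an E-box. ACGTG lay in 18.7% of all 27305 promoters, in 15 of 23 matched HIF targets and in 8 of 22 matched glycolysis genes. GCGTG, the other core form, lay in 31.9% of all promoters, in 12 of the 23 HIF targets and in 7 of the 22 glycolysis genes. CITED2 and ERO1A, which fell, were among the 15 with ACGTG.

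Other rises were larger than those of most HIF targets. DDIT4, an inhibitor of mTORC1 that hypoxia and other stresses induce, was at 30.8, 30.2 and 30.5 RPKM against 269.9, 266.1 and 280.4 RPKM, with wide separation of the groups (3.12, SE 0.0246, limma adjusted p = 1.08e-08). KREMEN2, a receptor for the WNT inhibitors of the Dickkopf family, went from 0.681, 0.707 and 0.794 RPKM to 14.1, 13.7 and 13.4 RPKM (3.09, limma adjusted p = 4.87e-08). IGFBP2, which binds insulin-like growth factors, went from between 11.9 and 12.7 RPKM to between 93.9 and 96.4 RPKM (2.86, limma adjusted p = 2.71e-08). S100A10, CTSW and N4BP3 rose by 2.69, 2.22 and 2.00. CTSW overlaps the gene FIBP, so its reads may not be separable and its level is uncertain. Among the 15 largest rises, 4 clone-named transcripts and the segment IGHV1OR15-1 have no unique identity here and are uncertain, and 1 of them, AC009121.1, ranged from 4.19 to 27.1 RPKM among the controls.

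Protein folding and protein breakdown genes fell. Of 31 cytosolic and mitochondrial chaperone genes 25 fell and 4 rose (median −0.55), of 21 endoplasmic reticulum (ER) chaperone genes 17 fell and 4 rose (−0.53), and of 31 proteasome genes 30 fell and none rose (−0.40). HSPA8, the constitutive cytosolic HSP70, was at 486, 498 and 485 RPKM with shGFP and at 179.3, 179.2 and 178.6 RPKM with shDHX15-1 (−1.45, SE 0.0193, limma adjusted p = 4.87e-08). HSPA5, the HSP70 of the ER lumen, was at 61.2, 62.0 and 62.3 RPKM against 21.1, 20.9 and 20.4 RPKM (−1.53, SE 0.0219, limma adjusted p = 5.40e-08). In both, the hairpin libraries sat well under the controls and close to each other.

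HSPH1, a nucleotide exchange factor for HSP70, changed by −1.4995, the HSP90 cochaperone gene STIP1 by −1.09 and the mitochondrial cochaperonin gene HSPE1 by −1.08. SDF2L1 of the ER fell from between 30.0 and 32.6 RPKM to between 8.38 and 10.2 RPKM (−1.67, limma adjusted p = 1.87e-06). XBP1, the transcription factor of the unfolded protein response, changed by −1.11 and HYOU1, another ER chaperone, by −1.10. DNAJB4 (0.42) and CRELD2 (0.46) went the other way. In the proteasome the changes were more even, with PSMD1 of the regulatory particle at −0.79 and PSMB2 of the core at −0.66. The snoRNA SNORD14D lies inside an intron of HSPA8 and its fall (−1.80) may not be separable from that of its host.

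HSPA5 and HSPA8 are shown because they are the major HSP70 genes of the compartments named, with the ER stress element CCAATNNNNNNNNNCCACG and the heat shock element GAANNTTCNNGAA or TTCNNGAANNTTC in capitals. HSPA5 lies on the minus strand at chr9:125241344-125241593 and HSPA8 on the minus strand at chr11:123062137-123062386 (RefSeq, GRCh38.p14), 250 upstream bases each, 5′ to 3′.
HSPA5: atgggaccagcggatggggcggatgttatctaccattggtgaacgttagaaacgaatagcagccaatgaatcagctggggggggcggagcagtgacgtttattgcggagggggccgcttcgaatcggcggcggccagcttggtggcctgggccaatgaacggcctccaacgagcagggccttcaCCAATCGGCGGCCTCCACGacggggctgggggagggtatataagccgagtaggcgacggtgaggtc
HSPA8: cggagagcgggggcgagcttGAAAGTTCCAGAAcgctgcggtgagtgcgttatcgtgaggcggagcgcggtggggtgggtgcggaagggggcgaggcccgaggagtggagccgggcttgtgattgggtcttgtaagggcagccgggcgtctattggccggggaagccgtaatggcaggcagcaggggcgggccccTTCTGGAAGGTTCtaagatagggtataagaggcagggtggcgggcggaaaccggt
Searched on both strands, the ER stress element lay in 0.0806% of all promoters and in 6 of 20 matched ER chaperone genes, of which CRELD2 rose. The heat shock element lay in 0.44% of all promoters and in 3 of 28 matched cytosolic and mitochondrial chaperone genes.

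Ribosome assembly genes fell almost without exception. In the ribosome biogenesis list the median was −0.54, and 52 of its 53 genes fell while none rose. LTV1, an export factor of the small subunit, went from 29.0, 30.6 and 29.8 RPKM to 12.6, 12.5 and 12.8 RPKM (−1.18, SE 0.0267, limma adjusted p = 2.92e-07). PNO1, which also acts on the small subunit, changed by −1.10, and the nucleolar genes EBNA1BP2 and LYAR by −1.13 and −1.07. Genes of the cytosolic ribosomal proteins moved far less. Of 77 tested 40 fell, 5 rose and 32 were not called, with a median of −0.09, and the sign of that median changed under quantile normalisation. RPS27A was the member with the largest change, from between 129.0 and 138.3 RPKM to between 102.1 and 107.4 RPKM (−0.35, limma adjusted p = 7.30e-05). Many of these genes have near-identical pseudogenes, so single values are uncertain.

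Of 21 genes that host small nucleolar RNAs in their introns 13 fell and 4 rose (median −0.18), led by SNHG3 (−1.52) and DANCR (−1.38). Of 19 aminoacyl-tRNA synthetase genes, which charge tRNAs, 14 fell and 3 rose (−0.37). The valine enzyme VARS fell from between 27.4 and 27.9 RPKM to between 12.7 and 13.6 RPKM (−1.01, limma adjusted p = 8.83e-07), while the aspartate enzyme DARS rose by 0.52. MYC itself was at 89.1, 90.1 and 89.5 RPKM against 52.8, 52.0 and 53.5 RPKM (−0.75, limma adjusted p = 4.05e-07). Of 23 members of the MYC network list 15 fell and 5 rose (−0.17), and the nucleoside kinase gene NME1 changed by −1.20, whereas RRM2, a subunit of ribonucleotide reductase, rose by 0.68.

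SRM, spermidine synthase and a textbook MYC target, was at 48.0, 49.8 and 48.5 RPKM with shGFP and at 9.48, 10.3 and 10.5 RPKM with shDHX15-1. All hairpin libraries were far under the controls, at 0.207 of their mean (−2.16, SE 0.0393, limma adjusted p = 1.58e-07). In its pathway 9 of 11 tested genes fell and none rose (median −0.19). AMD1, which makes the aminopropyl donor for SRM, changed by −0.70, and ODC1, the first enzyme of the pathway, by −0.08. The SRM promoter is shown for its E-box CACGTG, the sequence MYC and MAX bind, in capitals. It lies on the minus strand at chr1:11060019-11060268 (RefSeq, GRCh38.p14), 250 upstream bases, 5′ to 3′.
SRM: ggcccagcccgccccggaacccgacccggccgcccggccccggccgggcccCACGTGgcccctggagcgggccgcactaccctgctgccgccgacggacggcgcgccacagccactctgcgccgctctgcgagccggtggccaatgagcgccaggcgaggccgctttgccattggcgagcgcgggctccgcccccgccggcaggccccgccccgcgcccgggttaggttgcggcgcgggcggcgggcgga
CACGTG lay in 6.49% of all promoters, in 6 of 44 matched ribosome biogenesis genes and, among 9 matched polyamine genes, in SRM only.

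**Figure D2:**
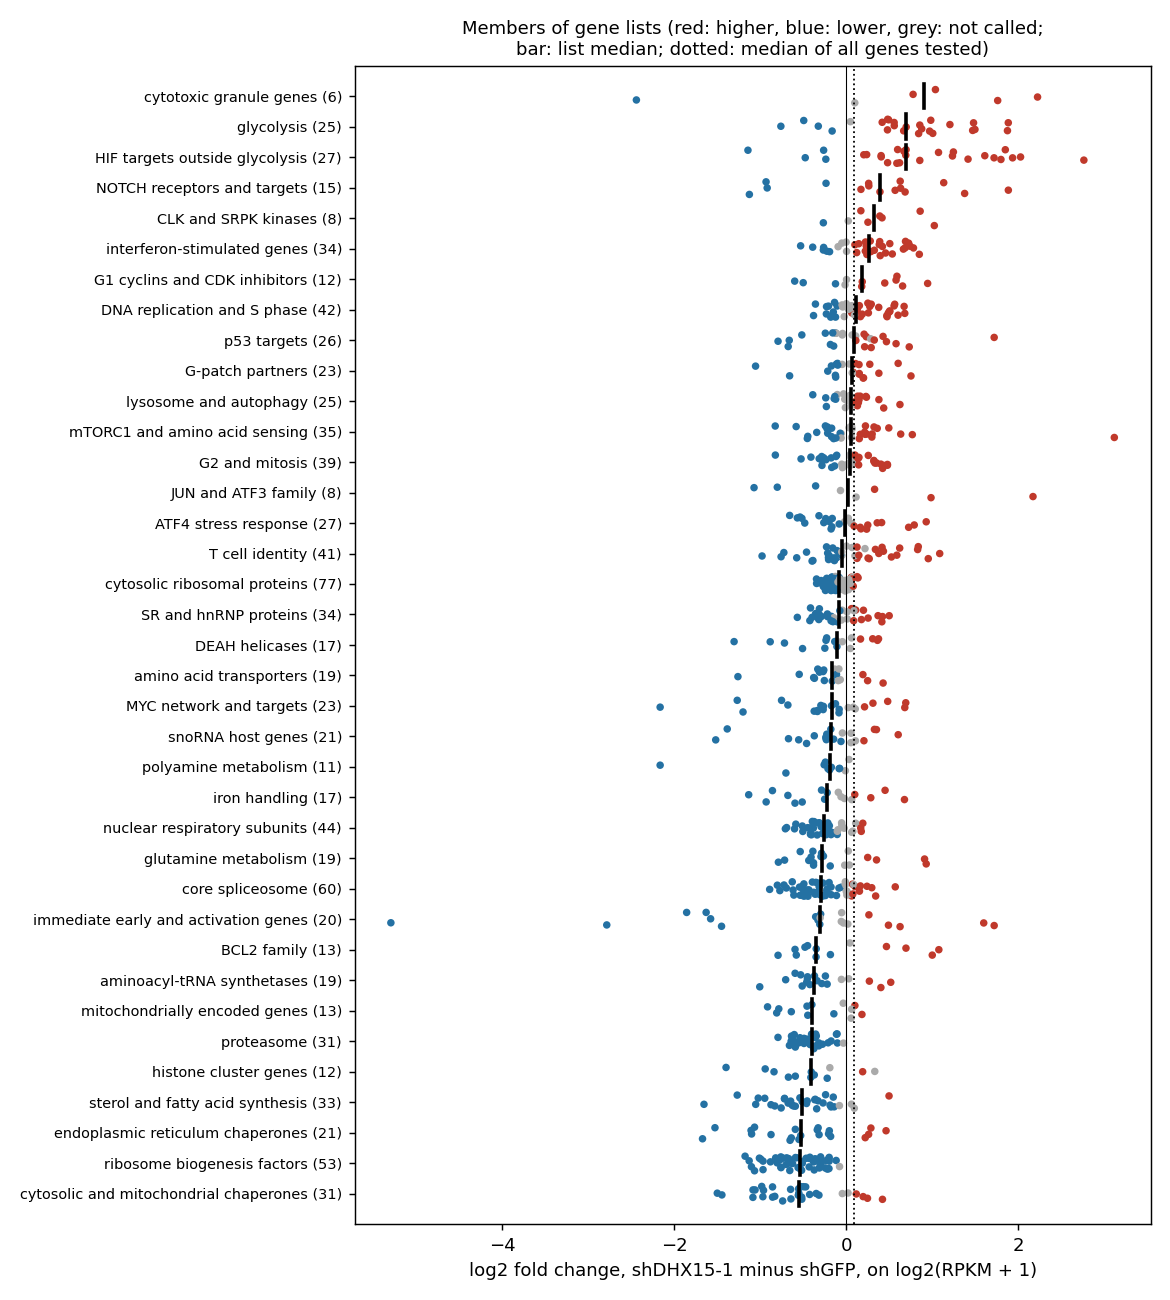
Log2 fold change of shDHX15-1 against shGFP for each tested member of 37 gene lists, with the number tested in brackets, a black bar at the list median and a dotted line at the median of all genes (0.09). Chaperone, ribosome biogenesis, sterol and proteasome genes lie left of 0 and glycolysis and HIF genes right of it, while EGR1 at −5.29 and DDIT4 at 3.12 mark the ends.

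Most genes of lipid synthesis, amino acid transport and mitochondrial respiration fell as well. Of 33 sterol and fatty acid synthesis genes 29 fell and 1, the acetate ligase gene ACSS2 (0.50), rose (median −0.51). INSIG1, which retains the sterol sensor SCAP in the ER, was at 106.0, 107.5 and 110.0 RPKM against 34.0, 33.6 and 33.1 RPKM (−1.65, SE 0.0222, limma adjusted p = 4.87e-08). Fatty acid synthase, FASN, changed by −1.27 and the desaturase SCD by −1.02. The leucine transporter SLC7A5 fell from 89.9, 84.1 and 88.4 RPKM to 35.8, 36.2 and 35.7 RPKM, without overlap (−1.26, limma adjusted p = 2.83e-07). Among 19 amino acid transporter genes 12 fell and 3 rose (−0.16), with SLC1A5 at −0.55, SLC38A5 at −0.38, SLC7A6 at −0.33 and SLC43A1 at 0.43. In glutamine metabolism 12 of 19 fell and 4 rose (−0.29), the risers including the synthetase genes GLUL (0.91) and ASNS (0.93).

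Genes that respond to amino acid shortage through ATF4 moved both ways, with 10 of 27 higher and 13 lower (median −0.02, positive without shDHX15-1 replicate 2). Of 35 genes of mTORC1 and amino acid sensing 14 rose and 14 fell, and among 25 lysosome and autophagy genes 12 rose and 6 fell; the medians of 0.05 and 0.06 changed sign under every other scaling tried. FTL, the ferritin light chain that stores iron, was at 705, 707 and 665 RPKM with shGFP and at 323, 304 and 318 RPKM with shDHX15-1 (−1.13, SE 0.0348, limma adjusted p = 8.04e-07); FTL has many pseudogenes and its level is uncertain to that extent. TFRC, the receptor for iron uptake, changed by −0.68 and the iron exporter SLC40A1 by −0.93, within 9 falls and 4 rises among 17 iron genes (−0.22). Of 13 genes on mitochondrial DNA 8 fell and 2 rose (−0.40), with MT-CYB at 3489, 3534 and 3324 RPKM against 1843, 1848 and 1793 RPKM (−0.92, limma adjusted p = 1.18e-06). Nuclear genes for respiratory subunits fell in 33 of 44 cases and rose in 3 (−0.26).

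In the splicing machinery, to which DHX15 belongs, core components fell and the kinases of SR proteins rose. Of 60 core spliceosome genes 42 fell and 10 rose (median −0.29). EFTUD2, the GTPase of the U5 particle, went from 19.5, 19.7 and 19.5 RPKM to 10.3, 10.1 and 9.94 RPKM (−0.89, SE 0.0234, limma adjusted p = 4.44e-07). SF3A3 and PHF5A of the U2 particle changed by −0.80 and −0.77, and the helicase gene DDX42 by 0.57. Among 8 kinases that phosphorylate SR proteins 6 rose and 1, SRPK1 (−0.27), fell (0.32). CLK1 was at 12.2, 12.2 and 12.1 RPKM in the controls and at 25.1, 26.9 and 25.5 RPKM with the hairpin (1.02, SE 0.0309, limma adjusted p = 7.62e-07), and CLK4 changed by 0.86.

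SR and hnRNP proteins themselves were split, with 17 of 34 lower and 10 higher; the median of −0.09 changed sign under quantile normalisation. TRA2B changed by −0.57 and SRSF1 by −0.42, against 0.50 for SRSF5 and 0.42 for SRRM2. Of 23 G-patch proteins, the class that activates DHX15, 11 rose and 9 fell, with a median of 0.07 that turned negative after median-centring and with edgeR and DESeq2. The nucleolar G-patch genes GPATCH4 and PINX1 changed by −1.05 and −0.66 and the splicing regulators RBM5 and RBM6 by 0.75 and 0.60. Among 17 DEAH helicase genes, DHX15 included, 9 fell and 4 rose (−0.11), and the ribosome assembly helicases DHX33 and DHX37 changed by −0.88 and −0.72.

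NOTCH and T cell genes changed member by member. Of 15 NOTCH receptor and target genes 11 rose and 4 fell (median 0.39). NOTCH1 was at 33.5, 33.8 and 34.7 RPKM with shGFP and at 53.2, 52.8 and 53.3 RPKM with shDHX15-1 (0.63, limma adjusted p = 1.09e-06). NOTCH3, a paralogue and target, went from 2.97, 2.88 and 3.01 RPKM to 9.04, 9.38 and 9.37 RPKM (1.38, limma adjusted p = 3.11e-07). HES4 rose by 1.88 and CR2 by 1.13, yet HES1, the best known effector, changed by −0.93 and IL7R, the interleukin-7 receptor, by −0.92.

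The cortical thymocyte marker CD1A fell from between 23.2 and 24.6 RPKM to between 11.3 and 11.6 RPKM (−0.98, limma adjusted p = 7.60e-07). CD4 (1.09), CD27 (0.95) and CD7 (0.84) rose, in a list of 41 T cell identity genes with 16 higher and 19 lower. Of 12 listed granule genes of cytotoxic cells 6 were tested, of which 4 rose and 1 fell (median 0.91). The faller was GZMA, granzyme A, which went from 18.3, 19.6 and 15.2 RPKM to 1.98, 2.39 and 2.98 RPKM (−2.44, limma adjusted p = 5.02e-06). GZMM rose by 1.76 and the perforin gene PRF1 by 1.04. Of 34 interferon-stimulated genes 24 rose and 6 fell (0.26), among the risers STAT2 (0.74) and IRF7 (0.85), and among the fallers OAS2 (−0.53).

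Cell death genes of the BCL2 family moved in both directions among survival genes and among the death-promoting BH3-only genes. BCL2L11, which encodes the death-promoting BIM, was at 5.36, 5.10 and 5.39 RPKM against 12.2, 12.2 and 12.3 RPKM (1.08, limma adjusted p = 5.41e-07), and BMF of the same BH3-only class changed by 1.00. The survival genes BCL2L1 (−0.60), BCL2 (−0.45) and MCL1 (−0.35) were lower, while BCL2L2 (0.69), another survival gene, was higher. Of the other BH3-only genes BBC3 rose by 0.47, and PMAIP1 (−0.79), BID (−0.58) and BAD (−0.35) fell. Last, the effectors BAK1 and BAX changed by −0.48 and −0.18, so that 8 of 13 members fell and 4 rose (median −0.35). Among 26 p53 targets 11 rose and 9 fell, with a median of 0.09 that changed sign under median-centring and quantile normalisation.

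Cell cycle genes showed small changes in both directions. Of 42 S phase genes 22 rose and 10 fell (median 0.11, negative after median-centring), with the cyclin gene CCNE1 at 0.67 and the licensing factor CDT1 at 0.60 against MCM6 at −0.38. Of 39 genes of G2 and mitosis 15 rose and 14 fell, CDC20, the activator of the anaphase-promoting complex, moving by −0.82. The CDK inhibitor genes CDKN2C (0.95) and CDKN1B (0.66) rose, and CDK6 (−0.60) and CCND3 (−0.50) fell.

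The hairpins shDHX15-1 and shDHX15-2 lowered DHX15 to a like level but did not give the same transcriptome. With shDHX15-2 against shGFP, 66% of the same genes were called. Since both hairpins share the 3 shGFP libraries, their fold changes are set side by side, and the hairpins were tested against each other directly. DHX15 was at 16.1, 16.5 and 16.8 RPKM with shDHX15-2 and differed from shDHX15-1 by 0.04 (SE 0.0255, limma adjusted p = 0.199). Of 14865 genes 9160 (61.6%) differed between the hairpins, 5709 (38.4%) being higher and 3451 (23.2%) lower with shDHX15-1, and 32 (0.215%) differed by at least 2-fold in each direction. After median-centring 4180 of 8974 were higher with shDHX15-1.

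Several of the falls described above were found mainly with shDHX15-1. GLO1, which detoxifies methylglyoxal, was at 78.3, 76.8 and 76.4 RPKM with shGFP, at 23.1, 23.5 and 23.6 RPKM with shDHX15-1 and at 71.6, 69.8 and 70.8 RPKM with shDHX15-2. The shDHX15-2 libraries thus sat just under the controls and those of shDHX15-1 far under both (difference between hairpins −1.55, SE 0.0183, limma adjusted p = 6.25e-10). FTL was at 709.5, 714.01 and 723.7 RPKM with shDHX15-2, above its controls, and differed between hairpins by −1.18 (limma adjusted p = 2.63e-08). SRM was at 34.3, 33.9 and 32.4 RPKM with shDHX15-2, between the other groups (−1.64, limma adjusted p = 1.42e-08). HSPA8 was at 395.9, 398.6 and 401.2 RPKM with shDHX15-2 (−1.15, limma adjusted p = 9.76e-10).

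Rises with shDHX15-1 were also uneven. PFKFB4 was at 3.39, 3.71 and 3.48 RPKM with shDHX15-2, just above the controls, and differed between hairpins by 1.38 (limma adjusted p = 5.11e-08). HES4 differed by 1.56 and the HIF target PPFIA4 by 1.03. CTSW rose further with shDHX15-2, to between 17.2 and 17.4 RPKM, and differed by −1.02. By contrast EGR1 was at 1.61, 1.37 and 1.30 RPKM with shDHX15-2, level with shDHX15-1 (−0.01, SE 0.0679, limma adjusted p = 0.864).

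Some genes were called in opposite directions. HIST1H1C, a linker histone, was at 11.3, 13.4 and 12.4 RPKM with shGFP, at 6.02, 5.92 and 5.88 RPKM with shDHX15-1 and at 36.3, 37.1 and 36.4 RPKM with shDHX15-2 (difference −2.44, SE 0.0481, limma adjusted p = 6.82e-09). HIST1H2BK, HIST1H2AC and the surrogate light chain gene IGLL1 showed the same order of groups, differing by −1.90, −2.04 and −1.88. CENPE, a motor of the mitotic kinetochore, was higher with shDHX15-1 and lower with shDHX15-2 than with shGFP (1.66, SE 0.0501, limma adjusted p = 4.89e-08). The 3 listed segments of NEAT1, the RNA of paraspeckles, did likewise (1.68 to 1.697).

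Lists differed between hairpins too. Of 12 tested histone genes 10 were lower and none higher with shDHX15-1 than with shDHX15-2, their medians against shGFP being −0.41 and 0.49. Histone genes are near-identical and mostly lack poly(A) tails, so poly(A) libraries read them poorly and single members are uncertain. Of 77 ribosomal protein genes 73 were lower and 1 higher with shDHX15-1 (medians −0.09 and 0.16), of 53 ribosome biogenesis genes 49 were lower and 1 higher (−0.54 and −0.28), and of 31 cytosolic and mitochondrial chaperone genes 27 were lower and 1 higher (−0.55 and −0.30). HIF targets differed the other way, with 21 of 27 higher and none lower with shDHX15-1 (0.69 and 0.42). Sterol genes (−0.51 and −0.47) and immediate early genes (−0.30 and −0.30) had like medians, though some members differed. Of 33 sterol genes 16 were lower and 6 higher with shDHX15-1 than with shDHX15-2, and of 20 immediate early genes 4 were lower and 8 higher. Over all genes tested 23.2% were lower and 38.4% higher with shDHX15-1 than with shDHX15-2, so the immediate early list lay near the shares of all genes.

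**Figure D3:**
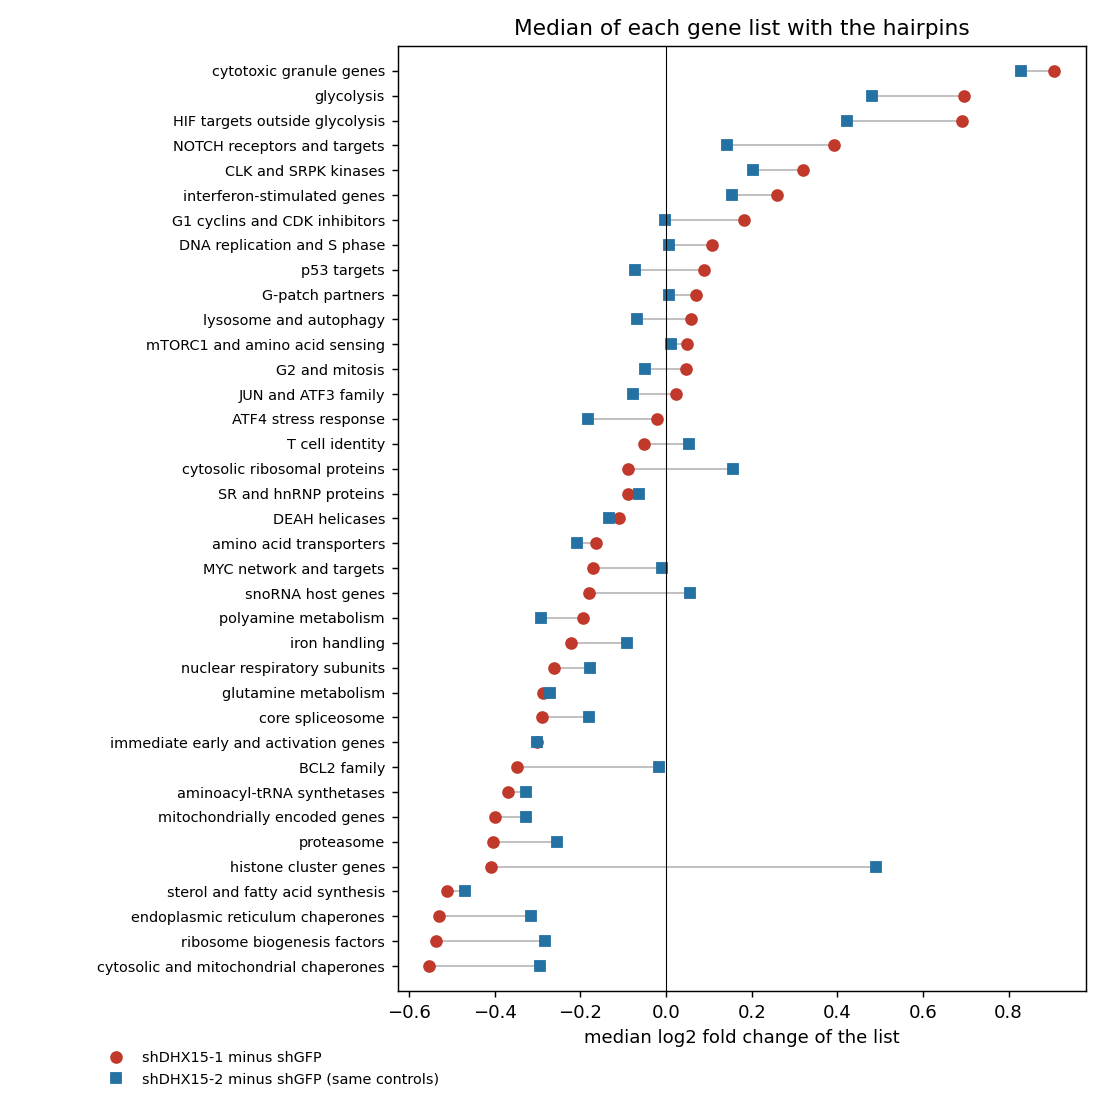
Median log2 fold change of each of 37 gene lists with shDHX15-1 (circles) and shDHX15-2 (squares), both against the same 3 shGFP libraries. The histone list lies at −0.41 with shDHX15-1 and 0.49 with shDHX15-2, the widest gap, and the immediate early list at −0.30 with both.

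Ciclopirox, an iron-chelating antifungal, was given to the same line in a separate experiment with its own controls, so its values are independent of the shGFP libraries. Its table holds normalised counts, tested as log2(count + 1). DHX15 RNA was itself lower with the drug (−0.74, SE 0.092, limma adjusted p = 8.7e-05), against −1.30 with shDHX15-1. Of 16825 genes 8157 (48.5%) were called with the drug, 3956 (23.5%) higher and 4201 (25%) lower. Over the 10594 genes tested in both experiments, 1786 were higher in both, which is 37.8% of those higher with shDHX15-1 and 72.9% of those higher with ciclopirox, against 23.1% of all genes higher with the drug. A further 1871 were lower in both, 57.3% of those lower with the hairpin and 57.8% of those lower with the drug, against 30.6% of all genes lower with the drug. Opposite calls numbered 624 for genes higher with the hairpin and 227 for genes lower with it. Without ciclopirox replicate 1 these counts were 396 and 167, the lowest on leaving out 1 library, and without DMSO replicate 1 they were 873 and 311, the highest. Across these genes, which are not independent replicates, the fold changes had a Pearson r of 0.502 and a Spearman rho of 0.513.

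HIF and glycolysis genes were higher in both experiments. HIF targets had medians of 0.69 with shDHX15-1 and 1.37 with ciclopirox, where 20 of 27 rose, and glycolysis genes 0.68 and 0.80 over 22 genes in both tables. AK4 rose with the drug from 103.6 ± 21.2 to 1401 ± 43.5 normalised counts (SD, n = 3; 3.77, limma adjusted p = 1.03e-07). Cytosolic and mitochondrial chaperones (−0.56 and −1.16), ER chaperones (−0.53 and −0.56), proteasome genes (−0.40 and −0.60) and ribosome biogenesis genes (−0.53 and −1.17, 52 of 52 lower with the drug) were lower in both. HSPA5 changed by −1.698 with ciclopirox and −1.53 with shDHX15-1.

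The immediate early list as a whole went the other way with the drug, with medians of −0.30 with shDHX15-1 and 0.82 with ciclopirox. EGR1, at −5.29 with shDHX15-1, rose with ciclopirox from 491 ± 57.4 to 1862 ± 157 normalised counts (1.92, limma adjusted p = 1.16e-06). FOS rose by 3.44 and DUSP6 by 0.90 with the drug, and 14 of 20 genes of their list rose and none fell. Some members did not reverse. BTG2 (1.72 with the hairpin, 3.73 with the drug) and KLF10 (1.60 and 1.17) rose in both experiments. DUSP2, lower with the hairpin, was not called with the drug (−0.38, limma adjusted p = 0.0966). The p53 targets, split with the hairpin (median 0.11 over the shared genes), rose in 24 of 25 cases with the drug (1.41), and ATF4 targets had medians of −0.05 and 1.07. Sterol genes were at −0.51 with the hairpin and −0.0042 with the drug, which split them, with 12 of 31 higher and 10 lower. SLC7A5 was at −1.26 with the hairpin and 0.49 with the drug, and FTL at −1.13 and 0.19 (limma adjusted p = 0.197 with the drug). CLK1, at 1.02 with the hairpin, was not called with the drug (0.16, limma adjusted p = 0.221).

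**Figure D4:**
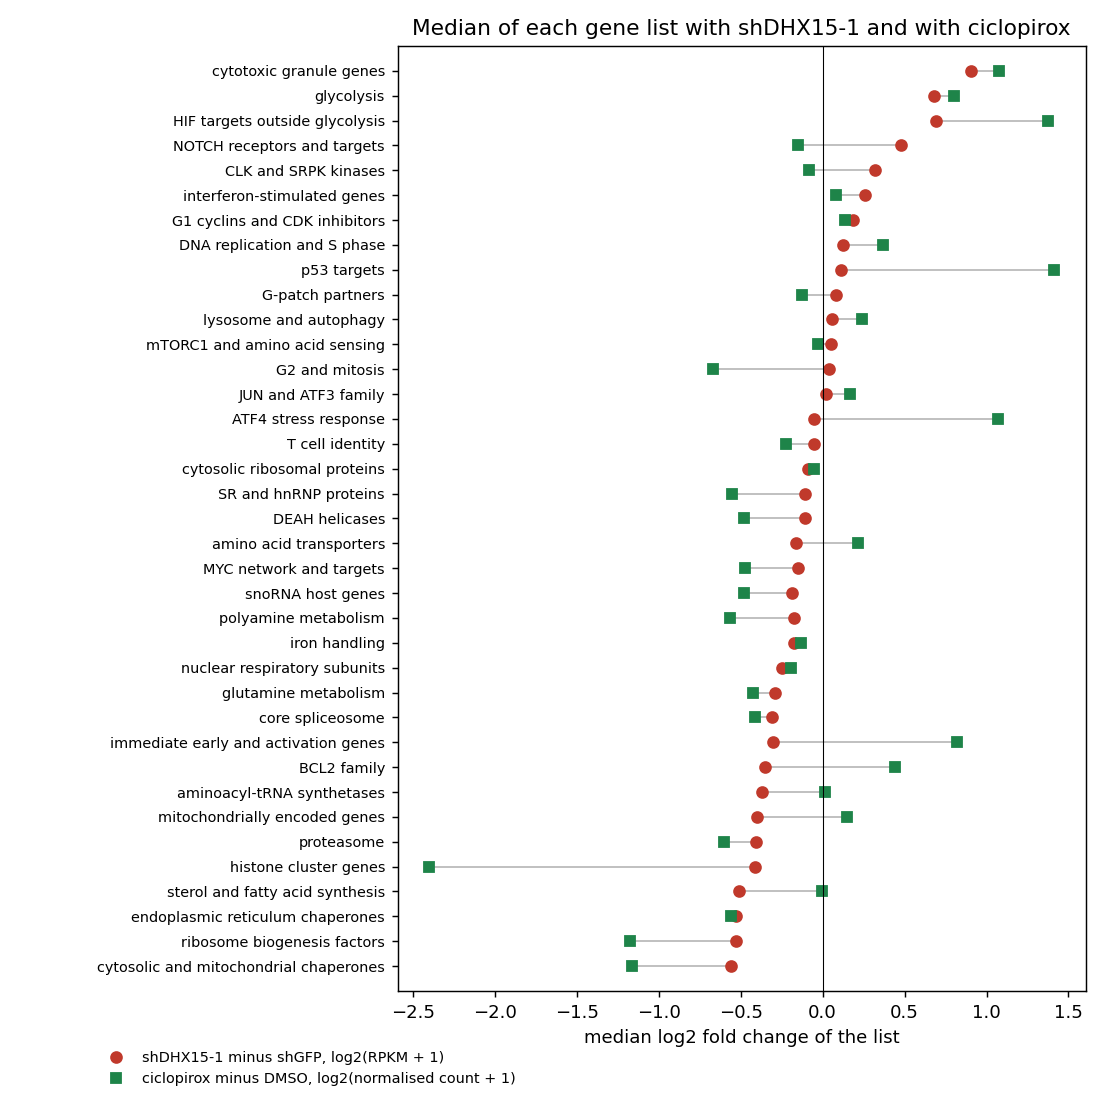
Median log2 fold change of 37 gene lists with shDHX15-1 (circles, log2(RPKM + 1)) and with ciclopirox (squares, log2(normalised count + 1)), over genes tested in both. Chaperone and ribosome biogenesis genes are left of 0 and HIF and glycolysis genes right of it in both, whereas immediate early genes lie at −0.30 and 0.82.

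Direction followed expression level on RPKM as deposited. The shares by level and by gene class were not recomputed under the other scalings. In the lowest decile of tested genes by mean RPKM (0.662 to 1.60 RPKM) 52.3% were higher and 11.3% lower with shDHX15-1. These shares are partly set by the filter, since 435 of the 1487 genes there reached 1 RPKM in shDHX15-1 libraries only and 78 in shGFP libraries only. In the third decile (2.55 to 3.79 RPKM), where this held for 5 genes and none, 53.4% were higher and 16.8% lower, with a median of 0.18. In the highest decile (34.8 to 9481 RPKM) 28% were higher and 54% lower, with a median of −0.11. The change was gradual, with the eighth decile nearly balanced at 37.9% higher and 38.3% lower. By the gene classes given in the ciclopirox table, which matched part of the genes, 44.1% of 9827 protein-coding genes were higher and 32.2% lower. Of 118 transcribed unprocessed pseudogenes 81 were higher and 12 lower, and of 113 long intergenic RNA genes 65 were higher and 24 lower, at median control levels of 2.75 and 2.36 RPKM against 8.05 RPKM for protein-coding genes. Of these, 7 of the pseudogenes, 12 of the long intergenic RNA genes and 222 of the protein-coding genes reached 1 RPKM with shDHX15-1 only. Low expression and gene class therefore moved together, and their separate parts were not tested.

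**Figure D5:**
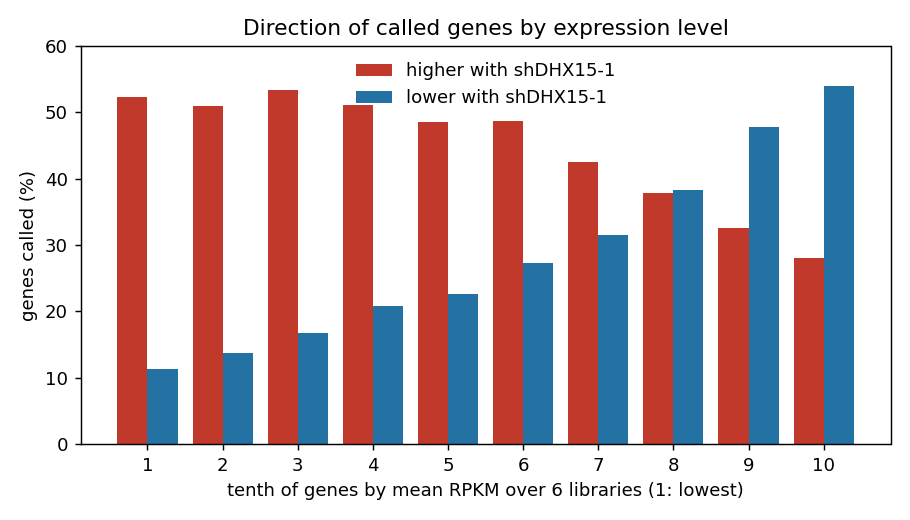
Percent of genes called higher (red) and lower (blue) with shDHX15-1 in each decile of the 14865 tested genes, ordered by mean RPKM over the 6 libraries. Calls are from RPKM as deposited and were not redrawn under the other scalings. The share of higher genes goes from 53.4% in the third decile to 28% in the highest, and that of lower genes from 16.8% to 54%; in the lowest decile 435 genes passed the filter through shDHX15-1 libraries only, which partly sets its shares.

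RNA immunoprecipitation gave a list of 4499 peaks in the authors' deposited file, made from 2 DHX15 antibody libraries beside 1 IgG library and 1 input library. Exactly 1 protein-coding gene of GRCh38 spanned 3770 of them, against 2243 and 2271 after a shift of the peaks by 1 Mb either way. Of 9988 protein-coding genes tested with shDHX15-1, 21.9% held a peak. The share was 26.5% of the 4430 higher genes, 16.7% of the 3205 lower genes and 20.3% of the 2353 genes not called. Median expression of genes with a peak was 7.80 RPKM and of those without 8.44 RPKM. Peaks on either strand were counted, and 76.1% of the assigned peaks lay on the strand of their gene. Calls also varied with length. Of tested genes with a counted length of 33 to 1209 bases 39.1% were higher and 22.2% lower. For 7012 to 49287 bases the shares were 52.7% and 24.6%. The part of gene length in the peak shares was not tested. Lists with mostly lower genes held few peaks in some cases, such as 1 of 31 proteasome genes and 2 of 31 cytosolic and mitochondrial chaperone genes, and more in others, such as 10 of 33 sterol genes and 7 of 19 amino acid transporter genes. Among lists with mostly higher genes, 4 of 27 HIF targets and none of 15 NOTCH genes held one.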

How the data were processed

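Poly(A)+ RNA of 6 CUTLL1 libraries was read as 150 bp pairs, per the labels' protocols; the counting tool, strand setting and annotation were not given in the sources used here. Tools such as STAR and DESeq2 1.32.0 appear in the submitters' processing notes with no role stated. The table of the hairpins holds RPKM per gene symbol as deposited by the authors. Every value came out as whole reads within a tolerance of 1e-05 reads for 19746 of 19848 genes (100 were at 0 throughout), which gave the library totals. The ciclopirox table holds a normalised signal as deposited, in which the authors divided the counts of each library by 1 factor. The log2 fold changes in that table, and the p-values and FDR there and in the peak list, are the authors' own as deposited and support no result here. In the deposited peak list the fold enrichment ratio is the authors' value per peak; no build is named in it, and positions matched GRCh38 genes.

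Genes with at least 1 RPKM in 3 of 6 libraries entered limma 3.58.1 (R 4.3.3, moderated with a mean trend) as log2(RPKM + 1), on the 6 libraries and without a block. A gene was called where its p, adjusted by Benjamini and Hochberg's method, was under 0.05. Hairpins were compared with limma over 9 libraries. Ciclopirox was tested with limma on genes with at least 10 normalised counts in 3 libraries. The members, the 37 lists and the rules were chosen with earlier results of these data known. Named genes were DHX15, the 15 largest rises and falls with a mean of at least 1 RPKM and no overlap between groups, up to 4 called members per list with the largest changes and up to 2 against the list's majority, 6 fixed genes, and 4 per direction that differed most between hairpins; other members named in the text were chosen after their values were seen. Alternatives were edgeR 4.0.16 and DESeq2 1.42.0 on recovered reads, other scalings, another pseudocount (0.1), no filter, all 9 libraries, a replicate block and leaving out each library. Replicates differed by more than sampling noise. The main fit was run on simulated counts with a dispersion set at 0.01, not estimated from these libraries. There 8% of 1.25-fold, 72% of 1.5-fold and 100% of 2-fold and 3-fold changes were called, with 50 genes each. These shares hold for that dispersion only. In the real libraries SRPK1 was called at −0.27, a change of less than 1.25-fold, so the shares do not give the sensitivity of the main test. Of the unchanged genes in the simulation 12 were called. Promoters were matched by symbol to RefSeq, and every promoter shown was one that held its motif. The sterol regulatory element TCACNCCAC, also searched for, lay in 1 of 27 matched sterol genes and 0.875% of all promoters. The amino acid response core TGATGNAA lay in 3 of 22 ATF4 genes, 2 of 15 synthetase genes and 3.19% of all promoters. Some other named genes overlap a neighbour, such as EBNA1BP2 with CFAP57, and their reads may not be separable. Thymus files were not used here.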

Additional observations from a re-analysis of the deposited data

How the results depend on the processing

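DHX15 stayed lower and called under all 14 alternatives run. The count of 10851 called genes stayed within 1.5 times under each of them (10206 to 12199), but the counts past 2-fold did not. Against 261 higher and 121 lower genes, a pseudocount of 0.1 gave 691 and 221, edgeR on recovered reads 602 and 323 and DESeq2 600 and 333, and median-centring gave 192 lower; these settings shrink low genes less or shift all genes. Between the hairpins, 32 higher and 32 lower by at least 2-fold became 151 and 66 with a pseudocount of 0.1, and 21 higher after median-centring. Of 2870 values of 205 named genes, 38 in 9 genes lost their call and 2 turned. MT-CO1 stood at −0.0081 after median-centring and HIST1H2BH at −0.0005 after quantile normalisation, neither being called there. The medians of 11 of 37 lists changed sign under at least 1 alternative. Genes called in the same direction with ciclopirox numbered 3657, and 3122 to 3871 without 1 library. With peaks of at least 2-fold enrichment, 4.56% of higher and 2.81% of lower genes held one. Whether the replicate numbers pair the samples is not settled here. Deviations of shGFP and shDHX15-1 libraries with the same number correlated at 0.084, 0.046 and 0.04 across genes, though each library correlated best with its own number, and the replicate block called 10663 genes. Depth was nearly equal, so it limits low genes in all libraries alike.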
